A study of Mus musculus with 6 samples.

Results

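Genes of cardiac pacemaking were followed in cultured embryonic cardiomyocytes after knockdown of the DNA methyltransferase DNMT1. They were taken by name and are 7 of the 43629 genes in the count files: Hcn2, Hcn3 and Hcn4, which encode pacemaker channels, Cacna1g and Cacna1h, which encode T-type calcium channels, Cacna1d, which encodes an L-type calcium channel of the sinoatrial node, and Shox2, a transcription factor of the same node. Of these, Hcn4 rose after DNMT1 siRNA, and the other 6 did not pass the test. Cacna1g was higher in all 3 DNMT1 siRNA samples than in any negative siRNA sample, without passing the test. Groups separated in this direction in 18.3% of all genes tested. Relative to cardiomyocyte marker reads, the direction of Hcn4 differed with the marker. Cacna1g was read against only 3 of these markers, each of which rose itself, and was not higher against them.

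The cells came from ventricles of CD-1 mouse embryos at embryonic day 13.5, pooled by litter. After preplating and 48 h of culture, the cells were transfected with 12 nM AllStars negative control siRNA (negative siRNA, n = 3) or with 12 nM of a pool of 4 siRNAs against DNMT1 (DNMT1 siRNA, n = 3). They were collected 72 h later by magnetic sorting for VCAM1, and polyA RNA was sequenced. A treatment tag of the 3 knockdown samples names DNMT3a siRNA, whereas their titles, the transfection protocol and the study design name DNMT1. All groups share the strain, stage, culture and sort. The labels do not say which litter each sample came from, so the tests measure the spread between these samples, which may be technical.

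Normalized read counts of Dnmt1 were 3447, 2760 and 2878 in the negative siRNA samples and 772, 786 and 666 in the DNMT1 siRNA samples. Dnmt1 thereby stood at 24.5% of its negative siRNA mean (log2 fold change -2.03, SE 0.109, edgeR FDR = 0.000192). Dnmt3a, the methyltransferase in the tag, was not lowered, with means of 5453 and 6425 normalized counts (log2 fold change 0.24, edgeR FDR = 0.0919). Reads on genes numbered 27852412 to 35896018 per negative siRNA library and 13739561 to 16186310 per DNMT1 siRNA library. The share of uniquely mapped reads that lay outside annotated genes was 14.6% to 17.5% with negative siRNA and 24.4% to 32.0% with DNMT1 siRNA, and the part of this difference in the results was not tested. Negative siRNA replicate 2 stood apart in several genes. It had 680 normalized counts of Myh11, the smooth muscle myosin, against 120 and 179 in the other negative siRNA samples. Counts of Myh7, a ventricular marker, were 3496 against 945 and 1267, and those of Cdh5, an endothelial marker, 552 against 216 and 261. Smtn, also a smooth muscle marker, had 4181 in this library against 4143 and 4010. For the 7 genes, values that moved by more than 1.5 times or changed a call without that library are given both ways.

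The labelled cell type was checked against its markers. All 8 cardiomyocyte markers were detected, and 6 of them rose with DNMT1 siRNA. The other two were Myl7, an atrial myosin light chain (log2 fold change 0.42, edgeR FDR = 0.0919), and Vcam1, the protein used for the sort, which had 6446 ± 999 and 5389 ± 106 normalized counts (log2 fold change -0.26, FDR = 0.148). Their summed level was 2069 to 2460 CPM (reads scaled to a common library total) with negative siRNA and 4175 to 4997 with DNMT1 siRNA, with no overlap. Of 7 atrial markers Nppa and Myl4 rose (list sum 203 to 291 against 366 to 438 CPM). On the same list, Nr2f2 was lower in every DNMT1 siRNA sample without passing (log2 fold change -0.35, edgeR FDR = 0.0594). Nr2f1 had a log2 fold change of -0.33 (FDR = 0.400). Of 5 ventricular markers Myl2 rose (list sum 127 to 337 against 291 to 377 CPM). Reads of 6 fibroblast genes were also abundant in every library, at 35490 to 54956 CPM with negative siRNA and 26870 to 28711 with DNMT1 siRNA. Of the 6, Col1a1, Col1a2 and Dcn fell. Smooth muscle markers (5127 to 7808 against 4391 to 4581 CPM), epicardial markers (1492 to 1750 against 1671 to 1743) and macrophage markers (9.35 to 24.2 against 8.34 to 12.7) had no gene among 5 each that passed both limits. Of 5 endothelial markers Kdr and Emcn rose (51.8 to 81.2 against 77.6 to 89.1 CPM). Tek, on the same list, was lower in every DNMT1 siRNA sample (log2 fold change -0.35, edgeR FDR = 0.0373), under the fold limit. Of 8 neuronal markers 3 were abundant enough to test and none passed, and the summed level was 76.2 to 128 against 77.9 to 84.3. Snap25 was at 3 counts or fewer in every library. Of 4 erythroid markers only Alas2 was testable, and the globin genes Hba-a1, Hbb-bt and Hbb-y stood at 3 counts or fewer in every library. By edgeR, log2 fold changes of leading genes of these lists were 1.98 for Ttn, the giant sarcomere protein titin, -0.51 for Acta2 (FDR = 0.0457, under the fold limit), -0.43 for Tagln, -0.34 for Tubb3 (-0.044 without negative siRNA replicate 1), 1.21 for Prph (1.87 without negative siRNA replicate 2, FDR = 0.00225), 0.23 for Upk3b, -0.09 for Msln, -0.96 for Csf1r and 0.18 for Cd68. With all samples, Ttn alone of these genes passed both limits (FDR = 0.00118). In such bulk samples, fewer cells of a type and less RNA per cell cannot be told apart.

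Pacemaker cells depolarise spontaneously between beats. Hyperpolarisation-activated cyclic nucleotide-gated (HCN) channels carry the funny current, which opens on hyperpolarisation and is enhanced by direct binding of cAMP. T-type channels open at low voltages and L-type channels at higher ones, and the calcium released from the sarcoplasmic reticulum adds a second, calcium-driven clock. HCN4 is the main HCN channel of the sinoatrial node. Several of these genes are expressed in embryonic ventricular cells too and decline there as the working myocardium matures.

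Sequence around the start of the HCN genes is shown because the methyltransferase acts on cytosines of CpG dinucleotides. Promoter windows of 300 bases, which begin upstream of each RefSeq start and end just past it on the GRCm38.p6 build, were found for 4 of the 7 genes. Gene positions given below come from the GENCODE annotation instead, where Hcn4 starts at 58823412, downstream of the end of its window. The windows of Hcn4 (chr9:58822699-58822998, plus strand) and Hcn2 (chr10:79716384-79716683, plus strand), the HCN gene that passed the test and one that did not, read 5′ to 3′ as follows, with each CpG in capitals.
Hcn4: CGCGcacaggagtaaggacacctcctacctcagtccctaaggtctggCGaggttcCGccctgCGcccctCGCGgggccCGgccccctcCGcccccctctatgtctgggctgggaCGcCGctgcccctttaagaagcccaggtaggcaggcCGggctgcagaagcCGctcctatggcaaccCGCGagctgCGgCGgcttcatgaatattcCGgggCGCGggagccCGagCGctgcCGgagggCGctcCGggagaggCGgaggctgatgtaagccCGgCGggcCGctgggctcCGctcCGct
Hcn2: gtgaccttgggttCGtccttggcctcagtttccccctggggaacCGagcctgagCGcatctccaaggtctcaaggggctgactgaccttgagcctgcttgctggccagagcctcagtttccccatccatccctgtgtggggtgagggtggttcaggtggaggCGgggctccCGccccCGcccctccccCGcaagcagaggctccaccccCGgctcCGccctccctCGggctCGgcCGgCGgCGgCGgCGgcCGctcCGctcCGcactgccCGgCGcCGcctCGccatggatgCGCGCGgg

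The Hcn4 window holds 31 CpG dinucleotides and 71.7% G and C bases, and the Hcn2 window holds 26 and 72.3%. Among 32851 windows of 27025 genes the median was 7 CpG and 52.7% G and C, and 10.6% and 16.9% of windows held as many CpG as Hcn4 and Hcn2, respectively. The motif GGGCGG, which holds 1 CpG itself, was found on either strand 2 times in the Hcn4 window and 3 times in the Hcn2 window, against a share of 35.7% of all windows that hold it. TATAAA, found in 13.6% of all windows, was in neither. The Shox2 window (chr3:66981722-66982021) holds 11 CpG, and 41.4% of windows hold as many. Cacna1d has 2 windows, of 4 CpG (chr14:30491107-30491406) and 63 CpG (chr14:30353437-30353736). High CpG content was thus shared by the gene that passed the test and the gene that did not, and methylation of these windows was not analysed here.

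Hcn4 (ENSMUSG00000032338) lies on chromosome 9 of GRCm38 at 58823412 to 58863175 on the plus strand, with 6118 bp of exons. Its normalized read counts were 267, 447 and 353 in the negative siRNA samples and 746, 566 and 687 in the DNMT1 siRNA samples. The lowest DNMT1 siRNA sample was above the highest negative siRNA sample. The counts behind these values were 457, 648 and 454 reads against 556, 388 and 420 before scaling for library size. The mean rose from 355 ± 90.0 to 666 ± 91.8 (SD, n = 3 each), and the log2 fold change was 0.91 (SE 0.186, 95% interval 0.48 to 1.34, 1.88-fold, edgeR FDR = 0.0198). Among all 15470 genes tested, 6.49% passed the FDR limit of 0.05 and the fold limit of 1.5, with 4.26% of the genes tested higher with DNMT1 siRNA and 2.23% lower. Groups did not overlap in 18.3% of the genes on the higher side and 17.7% on the lower side. The call of Hcn4 was lost when any 1 of the DNMT1 siRNA samples was left out (log2 fold change 0.79, 1.01 and 0.87 without replicate 1, 2 and 3, FDR = 0.0875, 0.0528 and 0.0849). In the same 3 fits, calls on the higher side over all genes went from 659 to 316, 255 and 314. Without negative siRNA replicate 2 the log2 fold change of Hcn4 was 1.11 (FDR = 0.00177).

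**Figure D1:**
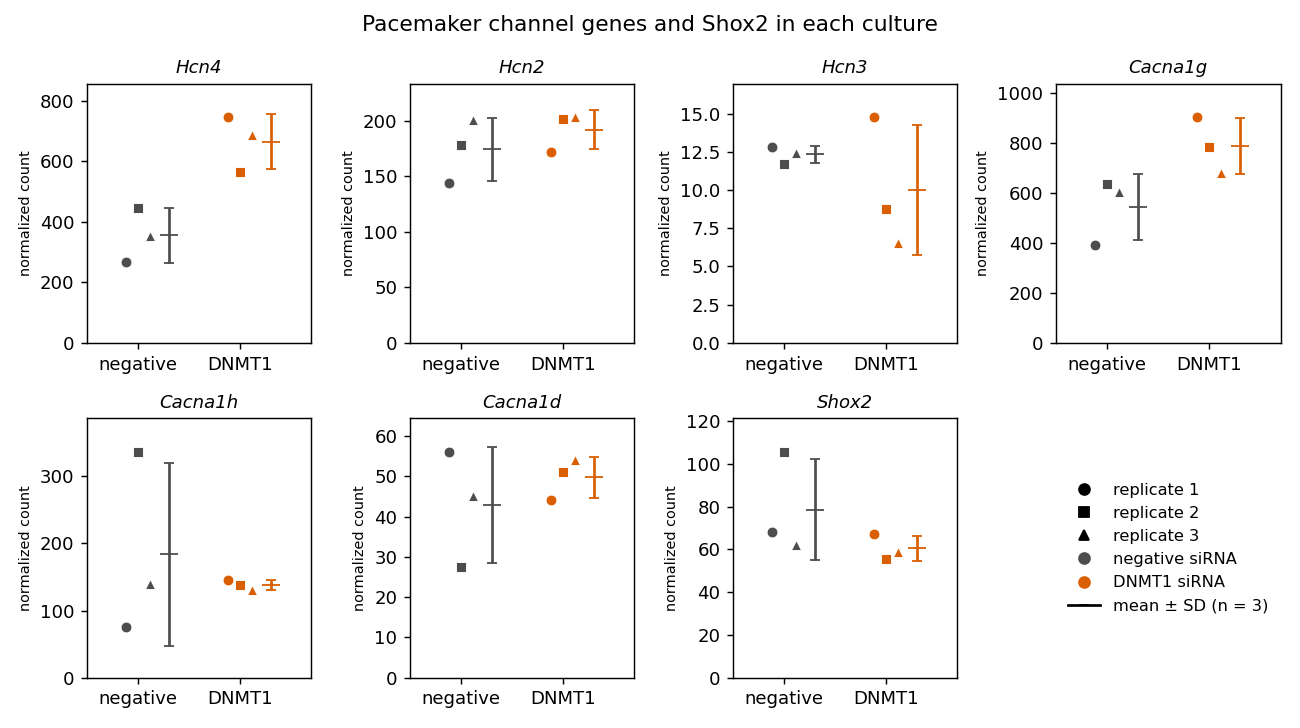
Normalized read counts of the 7 genes in each sample, with negative siRNA and DNMT1 siRNA side by side, shapes for replicate numbers and bars for the mean and SD of 3. Hcn4 and Cacna1g separate the groups, with the lowest DNMT1 siRNA samples at 566 and 679 normalized counts and the highest negative siRNA samples at 447 and 634, while negative siRNA replicate 2 lies far above the others for Cacna1h. Of all genes tested, 18.3% separate the groups in this direction.

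Hcn2 (ENSMUSG00000020331, chromosome 10, 79716634 to 79736108, plus strand, 3195 bp of exons) encodes the HCN channel that is prominent in ventricular muscle and neurons. Its normalized counts were 144, 178 and 201 with negative siRNA and 172, 201 and 203 with DNMT1 siRNA, and the groups overlapped. The log2 fold change was 0.14 (SE 0.158, 95% interval -0.22 to 0.50, edgeR FDR = 0.593). Hcn3 (ENSMUSG00000028051, chromosome 3, 89146074 to 89160196, minus strand, 4154 bp of exons), a little expressed family member, had 12.8, 11.7 and 12.4 normalized counts against 14.8, 8.75 and 6.54. Between 4 and 22 reads lay behind each Hcn3 value, so its log2 fold change of -0.27 had an interval of -1.13 to 0.59 (SE 0.376, edgeR FDR = 0.669). Exons of Hcn3 share 711 bp, 17.1% of their length, with Pklr on the opposite strand, which had at most 5 reads in any library. The library kit did not mark strand.

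Cacna1g (ENSMUSG00000020866, chromosome 11, 94408391 to 94474198, minus strand, 10137 bp of exons) encodes the T-type pore subunit that is common in the adult sinoatrial node. Normalized counts were 390.4, 634 and 605 with negative siRNA and 902, 784 and 679 with DNMT1 siRNA. All DNMT1 siRNA samples were above all negative siRNA samples, as in 18.3% of all genes tested. The mean went from 543 ± 133 to 788 ± 112 (SD, n = 3 each). On the log2 scale the difference was 0.54 (SE 0.186, 95% interval 0.12 to 0.97, 1.46-fold), and the edgeR FDR was 0.0959. The FDR was 0.0426 with DESeq2, 0.0465 with edgeR's exact test and 0.000165 with no filter. In these 3 settings the log2 fold change was 0.52, 0.54 and 0.51, under the fold limit. Without negative siRNA replicate 2 the log2 fold change was 0.67 with an FDR of 0.0359, which is past both limits. Without negative siRNA replicate 1, the lowest sample, it was 0.35 (FDR = 0.0985), and without DNMT1 siRNA replicate 1, the highest, 0.41 (FDR = 0.287).

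Cacna1h (ENSMUSG00000024112, chromosome 17, 25374285 to 25433783, minus strand, 9763 bp of exons) encodes the other T-type pore subunit of the heart. Normalized counts were 74.7, 336 and 140.0 with negative siRNA and 146, 138 and 131 with DNMT1 siRNA, so that the DNMT1 siRNA samples lay inside the range of the other group. Its log2 fold change was -0.40 (SE 0.470, 95% interval -1.48 to 0.68, edgeR FDR = 0.610). The highest value belonged to negative siRNA replicate 2, the library with 680 normalized counts of Myh11, and without it the log2 fold change turned to 0.39 (FDR = 0.327). Tpsg1 on the opposite strand shares 158 bp, 1.62% of the exons.

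Cacna1d (ENSMUSG00000015968, chromosome 14, 30039939 to 30491455, minus strand, 12621 bp of exons) encodes the L-type pore subunit that opens at lower voltages than the ventricular one and drives sinoatrial pacemaking. Its normalized counts were 56.0, 27.6 and 45.1 against 44.3, 51.0 and 54.0, and the ranges overlapped. The log2 fold change was 0.21 (SE 0.291, 95% interval -0.46 to 0.87, edgeR FDR = 0.680) and turned to -0.034 without negative siRNA replicate 2. Chdh on the opposite strand shares 589 bp, 4.67% of the exons. Shox2 (ENSMUSG00000027833, chromosome 3, 66971727 to 66981771, minus strand, 3311 bp of exons) encodes a homeodomain factor that keeps the node programme by restraining Nkx2-5. Normalized counts were 68.3, 105.5 and 62.2 with negative siRNA and 67.0, 55.4 and 58.9 with DNMT1 siRNA, with overlap. Its log2 fold change was -0.38 (SE 0.246, 95% interval -0.94 to 0.18, edgeR FDR = 0.349), and -0.11 (FDR = 0.747) without negative siRNA replicate 2, its highest sample. Rsrc1 on the opposite strand shares 153 bp, 4.62% of the exons.

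**Figure D2:**
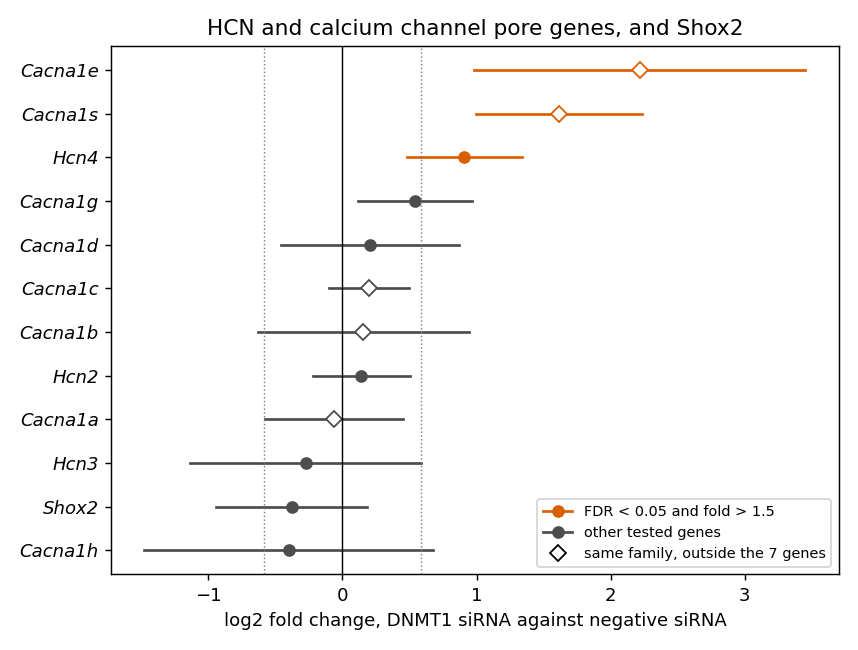
Log2 fold changes, DNMT1 siRNA against negative siRNA, for HCN and calcium channel pore genes and Shox2, with 95% intervals. Circles are the 7 genes and diamonds are relatives outside them, orange marks genes past both limits and dotted lines mark a 1.5-fold change; Hcn4 at 0.91 is the sole circle in orange, and Cacna1s at 1.61 and Cacna1e at 2.22 are the diamonds in orange.

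Levels of the channel genes were compared per length, as RPKM, the reads per kilobase of exon scaled for depth with TMM. With negative siRNA, Hcn4 stood at 2.68 ± 0.678, Hcn2 at 2.51 ± 0.410, Cacna1c at 2.50 ± 0.424 and Cacna1g at 2.47 ± 0.605 (SD, n = 3), and neighbours in this order overlapped. Shox2 at 1.09 ± 0.326 and Cacna1h at 0.865 ± 0.641 followed and overlapped. Cacna1d at 0.157 ± 0.0524 and Hcn3 at 0.137 ± 0.00629 were lowest and overlapped. With DNMT1 siRNA, Hcn4 at 5.01 ± 0.691 stood above Cacna1g at 3.58 ± 0.508, and Cacna1g above Cacna1c at 2.86 ± 0.282, without overlap in either step. Hcn2 at 2.77 ± 0.253 overlapped Cacna1c. Shox2 at 0.841 ± 0.0832 stood above Cacna1h at 0.653 ± 0.0361. Cacna1d at 0.182 ± 0.0182 and Hcn3 at 0.111 ± 0.0471 remained lowest. These are levels of transcripts and not of channels or currents.

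The make-up of each family was taken from the same length-scaled reads. Hcn4 made up 47.5%, 55.5% and 46.7% of the Hcn2, Hcn3 and Hcn4 total with negative siRNA and 68.0%, 58.7% and 63.3% with DNMT1 siRNA. The mean rose by 13.4 percentage points, from 49.9% ± 4.87 to 63.4% ± 4.67 (SD, n = 3), and the groups did not overlap (two-sided exact permutation test, p = 0.1, the smallest that 3 against 3 can give, and 0.167 after adjustment over 5 shares). The share of Hcn2 went from 47.4% ± 4.51 to 35.3% ± 5.01, and that of Hcn3 from 2.65% ± 0.640 to 1.40% ± 0.550, each with exact permutation p = 0.1. The 3 shares add up to a whole and are not independent. Cacna1g made up 83.4%, 64.5% and 80.6% of Cacna1g and Cacna1h with negative siRNA and 85.6%, 84.5% and 83.3% with DNMT1 siRNA, which overlapped (means 76.2% ± 10.2 and 84.5% ± 1.14, exact permutation p = 0.2). The difference of 8.28 points was 2.45 points without negative siRNA replicate 2, its lowest sample. The share of Cacna1d in Cacna1c and Cacna1d was 6.15% ± 2.73 and 6.04% ± 1.11 (exact permutation p = 1), a difference of -0.12 points that was -1.56 points without negative siRNA replicate 2.

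**Figure D3:**
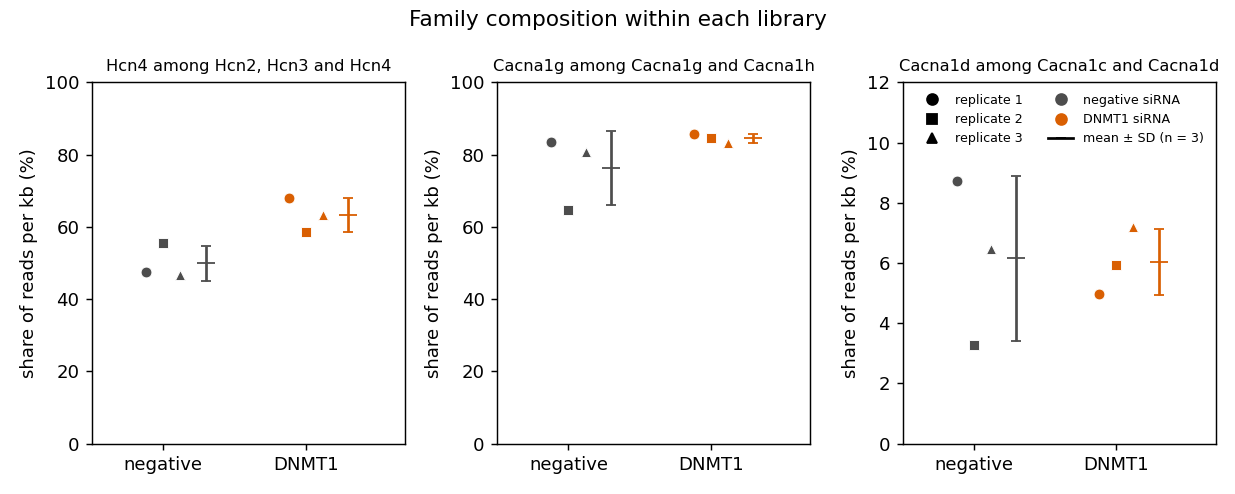
Shares of length-scaled reads within each channel family in percent, one point per sample, with the mean and SD of 3 per group. The Hcn4 share of Hcn2, Hcn3 and Hcn4 lies at 46.7% to 55.5% with negative siRNA and at 58.7% to 68.0% with DNMT1 siRNA.

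Because most cardiomyocyte markers rose with DNMT1 siRNA, Hcn4 was also read against them, a comparison chosen after the values were seen. Per 1000 reads of Tnnt2, cardiac troponin T, Hcn4 had 13.9, 25.5 and 25.6 reads with negative siRNA and 26.8, 21.4 and 29.9 with DNMT1 siRNA, which overlap (log2 difference 0.31, exact permutation p = 0.5). Per 1000 reads of Myh6, the alpha myosin heavy chain, it had 22.5, 25.8 and 18.3 against 15.6, 12.8 and 18.7, which overlap (log2 difference -0.50, exact permutation p = 0.2). Per 1000 reads of Actn2, sarcomeric alpha-actinin, it had 164, 166 and 182 against 132, 117 and 157, and every DNMT1 siRNA sample was lower (log2 difference -0.34, exact permutation p = 0.1). These 3 markers themselves rose by log2 0.61, 1.41 and 1.25 (edgeR FDR = 0.0223, 0.00316 and 0.00473). Relative to the other 5 listed markers the log2 differences were -1.08 for Ttn, -0.21 for Myl4, 0.13 for Nkx2-5, 0.49 for Myl7 and 1.18 for Vcam1. The groups did not overlap for Ttn (lower with DNMT1 siRNA), Myl7 or Vcam1 (both higher), each with exact permutation p = 0.1. The direction of Hcn4 therefore differed with the marker it was read against, and the part of cardiomyocyte content in its rise was not tested. For Cacna1g the log2 differences were -0.06 against Tnnt2 (exact permutation p = 0.9), -0.87 against Myh6 and -0.71 against Actn2 (exact permutation p = 0.1 each). Its groups overlapped for Tnnt2, and every DNMT1 siRNA sample was lower for Myh6 and Actn2. Cacna1g was not read against the other 5 markers, so whether its direction also differs with the marker was not tested. Among those 5, Vcam1 had a log2 fold change of -0.26, against 0.54 for Cacna1g. The part of cardiomyocyte content in the Cacna1g values was not tested. Over 26 ratios, of the 7 genes to Tnnt2, Myh6 and Actn2 and of Hcn4 to the other 5 markers, the lowest adjusted p was 0.153, at exact p values that cannot go below 0.1.

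**Figure D4:**
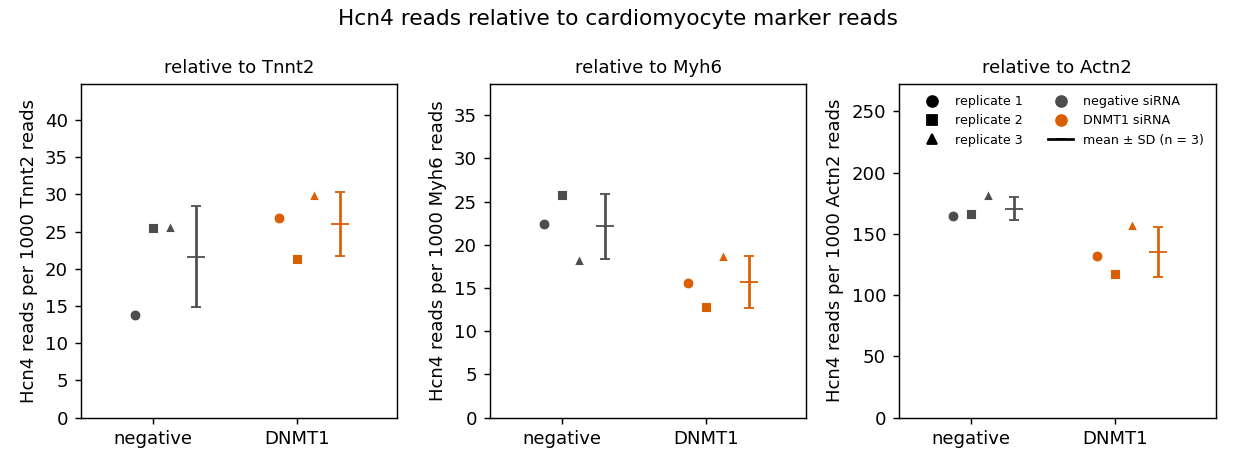
Hcn4 reads per 1000 reads of Tnnt2, Myh6 and Actn2 in each sample, with the mean and SD of 3 per group. Values lie at 13.9 to 25.6 against 21.4 to 29.9 for Tnnt2, at 18.3 to 25.8 against 12.8 to 18.7 for Myh6 and at 164 to 182 against 117 to 157 for Actn2, negative siRNA first.

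Among the genes whose profile over the 6 samples was nearest to that of Hcn4, by the root mean square difference of centred log2 CPM, were Kcnn2 (0.0542), Agtr1a (0.0713), Carns1 (0.0929) and Cyp2r1 (0.108). The nearest to the others were Iqce for Hcn2 (0.0373), Gm5590 for Hcn3 (0.106), Hoxd3os1 for Cacna1g (0.0613), Gpr35 for Cacna1h (0.0931), Zfp959 for Cacna1d (0.0799) and Smarca1 for Shox2 (0.0299). Kcnn2 encodes a small-conductance calcium-activated potassium channel and Agtr1a an angiotensin II receptor.

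Related genes were counted in lists, over 77 genes of which 60 were testable. Of the 60, 15 rose and none fell beyond both limits, against 4.26% and 2.23% of all genes tested. The lists were chosen with earlier results of these data known, so these counts are descriptive and are no test of the lists. Of the 15, 5 kept the call in all 6 fits that left out a sample, and 10 lost it in at least 1. Among other calcium channel pore genes, 2 of 5 tested rose: Cacna1s, the skeletal muscle L-type subunit, from 13.7 ± 2.55 to 42.1 ± 5.22 normalized counts (log2 fold change 1.61, edgeR FDR = 0.00908), and Cacna1e, an R-type subunit, from 5.44 ± 2.80 to 25.3 ± 13.0 (2.22, FDR = 0.0343). Cacna1s had 15 to 33 reads per library and lost the call without DNMT1 siRNA replicate 2 (edgeR FDR = 0.0637). Cacna1e had 4 to 24 reads per library and lost the call without negative siRNA replicate 1 or any DNMT1 siRNA sample. Cacna1c, the ventricular L-type subunit, had 1148 ± 195 and 1315 ± 130 normalized counts (log2 fold change 0.20, SE 0.129, FDR = 0.353). Cacna1i, the third T-type gene, was too low to test, with 1, 0 and 0 reads against 1, 9 and 8. Of 16 auxiliary subunit genes, 8 were tested and Cacna2d2 alone rose (14.6 ± 6.79 to 45.3 ± 4.57 normalized counts, log2 fold change 1.60, edgeR FDR = 0.0289). It lost the call without any 1 of the DNMT1 siRNA samples. Cacnb2, a beta subunit of the ventricular channel, had a log2 fold change of 0.47 (FDR = 0.0350), under the fold limit. Of 5 HCN partners, 2 were tested and neither passed: Mrvi1 at log2 0.36 (FDR = 0.0527) and Cav3, the muscle caveolin, at 0.61 (FDR = 0.0595). Cav3 passed both limits with DESeq2 (0.586, FDR = 0.0244) and edgeR's exact test (0.61, FDR = 0.0203). It also passed without negative siRNA replicate 2 (0.78, edgeR FDR = 0.01).

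Among transcription factors of the sinoatrial node, 1 of 6 rose. It was Nkx2-5, the working myocardium factor that Shox2 restrains, from 307 ± 32.0 to 534 ± 66.0 normalized counts (log2 fold change 0.80, edgeR FDR = 0.00658). Nkx2-5 lost the call without DNMT1 siRNA replicate 2 (FDR = 0.0506). The factors that promote the node had log2 fold changes of 0.45 for Tbx3 (FDR = 0.146), 0.04 for Isl1 (FDR = 0.959) and 0.17 for Tbx18 (FDR = 0.195). Of 10 node markers 6 were tested and 2 rose: Igfbp5, a binding protein of insulin-like growth factors, from 339 ± 2.83 to 889 ± 104 (log2 fold change 1.39, FDR = 0.000545), and Rgs6, which ends parasympathetic G protein signalling in the heart, from 32.9 ± 7.77 to 66.4 ± 9.62 (1.02, FDR = 0.0364). Rgs6 lost the call without negative siRNA replicate 1 or any DNMT1 siRNA sample. Kcnj5, a subunit of the acetylcholine-gated potassium channel, was higher without overlap and did not pass (565 ± 200 to 905 ± 39.1, log2 fold change 0.68, FDR = 0.0747). The share of all genes tested without overlap on the higher side was 18.3%.

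Ventricular conduction markers rose in 4 of 5 cases. They were Irx3, a transcription factor of the fast conduction system (137 ± 37.1 to 317 ± 36.4, log2 fold change 1.21, edgeR FDR = 0.00974), Etv1, another such factor (84.7 ± 14.7 to 156 ± 7.39, 0.89, FDR = 0.0145), Gja5, the conduction connexin (23.9 ± 4.24 to 57.8 ± 18.7, 1.28, FDR = 0.0292), and Cntn2, an adhesion protein of conduction cells (26.0 ± 11.3 to 59.5 ± 7.37, 1.21, FDR = 0.0491). Irx3, Etv1, Gja5 and Cntn2 each lost the call in 2 to 5 of the 6 fits that left out a sample. Id2 had a log2 fold change of 0.04 (FDR = 0.782). Of 6 genes of the calcium clock, 4 rose. Ryr2, the release channel of the sarcoplasmic reticulum, went from 1458 ± 352 to 4430 ± 365 normalized counts (log2 fold change 1.60, FDR = 0.00157), Pln, phospholamban, from 792 ± 199 to 1719 ± 272 (1.12, FDR = 0.00796), and Casq2, calsequestrin, from 865 ± 224 to 1954 ± 278 (1.18, FDR = 0.0065). Atp2a2, the calcium pump of the reticulum, rose by log2 0.65 (FDR = 0.00354). Without DNMT1 siRNA replicate 1 its log2 fold change was 0.582, under the fold limit. Slc8a1, the sodium-calcium exchanger, did not pass (log2 fold change -0.10, FDR = 0.650). Cardiomyocyte marker levels rose beside these genes, as given above, and their part was not tested.

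Of 14 adenylyl cyclases and phosphodiesterases, which set the cAMP level that HCN channels sense, Adcy7 alone passed both limits (671 ± 141 to 1340 ± 99.7 normalized counts, log2 fold change 1.00, edgeR FDR = 0.00528). Under the fold limit, Pde3a was lower (log2 fold change -0.41, FDR = 0.0313) and Pde4b higher (0.56, FDR = 0.0447). None of 8 genes of the REST repressor complex passed both limits. REST represses neuronal genes and, in ventricular muscle, Hcn2, Hcn4 and Cacna1h among others. Rest itself had 2865 ± 69.7 and 2706 ± 118 normalized counts (log2 fold change -0.08, FDR = 0.426). Under the fold limit, 4 of the 8 had an FDR below 0.05, the corepressors Rcor1 (log2 fold change 0.40, FDR = 0.0109) and Rcor3 (0.37, FDR = 0.0198) on the higher side, and the histone demethylase Kdm1a (-0.36, FDR = 0.0286) and the deacetylase Hdac2 (-0.29, FDR = 0.0279) on the lower side. Median log2 fold changes were 0.14 over the 7 genes, 0.20 over the other pore genes, 0.01 over the auxiliary subunits, 0.49 over the HCN partners, 0.22 over the sinoatrial transcription factors and 0.63 over the node markers. They were 1.21 over the conduction markers, 0.89 over the calcium clock genes, 0.12 over the cAMP genes and -0.17 over the REST complex, against -0.0049 over all genes tested.

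**Figure D5:**
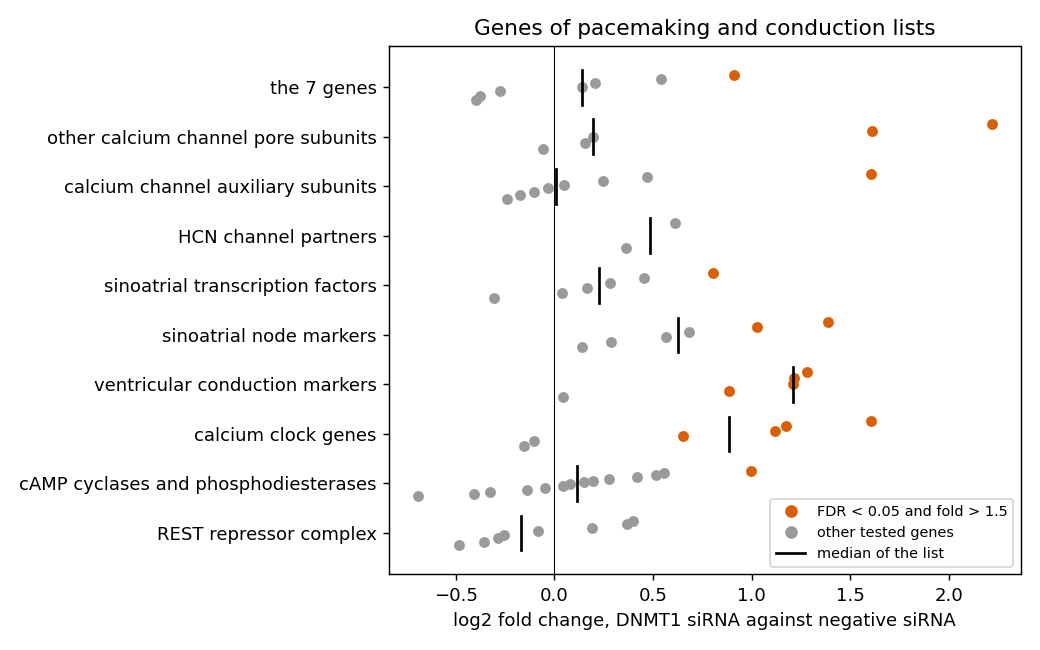
Log2 fold changes of the tested genes in each list, one point per gene, with genes past both limits in orange and black bars at list medians. Conduction markers, with 4 of 5 in orange, and calcium clock genes, with 4 of 6, lie mostly above zero, while the REST complex genes, with 0 of 8, lie around it.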

How the data were processed

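RNA-Seq was made from 6 samples, 3 per treatment. The authors checked read quality (FastQC), aligned to mm10 (TopHat2) and tallied reads on genes (HTSeq). What they deposited are raw counts in a separate file for each sample. The paper names an Ensembl GRCm38 annotation; tool versions and the strand setting are not given in the sources used here. Rows that name no gene stayed out of library sizes and tests, and the share of reads outside annotated genes is in the report.

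The main test was the quasi-likelihood F test of edgeR 4.0.16 (R 4.3.3) after TMM scaling and filterByExpr (minimum count 10, minimum total 15), with Benjamini-Hochberg adjustment over 15470 genes. Genes under an FDR of 0.05 that changed more than 1.5-fold were called, as in the authors' methods. Each count was divided by its library's effective size, set against the geometric mean of all 6, to give normalized counts. Exon lengths and positions were read from a GENCODE annotation of GRCm38 that holds 42462 of the genes, and promoters from RefSeq. Shares and ratios were compared by exact permutation tests in Python 3.11.15 (scipy 1.17.1). Scripts were tested on simulated data. Low counts limit the precision for Hcn3 and Cacna1d most.

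The 7 genes and the lists (139 of 140 symbols matched) were chosen with earlier results of these data known. The text names the 7, up to 4 called genes of each list with the lowest FDR or, where none was called, the 2 with the highest level, and the nearest profiles. Other genes were named after their values were seen, among them Kcnj5, Slc8a1, Id2, Cacna1c, Cacna1i, Cacnb2, Tbx3, Isl1, Tbx18, Rcor1, Rcor3, Hdac2 and Vcam1, and the ratios to cardiomyocyte markers were likewise added. Tek, Myh7, Cdh5, Smtn, Nr2f1, Nr2f2, Pde3a and Pde4b were also named in this way. Alternatives were other scalings, DESeq2 1.42.0, edgeR's exact test, other filters, equal depth, a replicate block, each sample left out, other gene lengths and no fold limit. Exon usage, bisulfite sequencing and cell function were not analysed here, and some genes are not reported here.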

Additional observations from a re-analysis of the deposited data

How the results depend on the processing

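Over 15 alternatives, the log2 fold change of Hcn4 ranged from 0.74 to 1.11, and its call was kept in 12. Hcn2 and Shox2 stayed uncalled in all 15, and Hcn3 in the 10 that could test it. Without negative siRNA replicate 2, Cacna1h turned to 0.39 and Cacna1d to -0.034, and Cacna1g (0.67) passed both limits; leaving out each sample in turn gave -0.78 to 0.39 for Cacna1h and -0.034 to 0.45 for Cacna1d. Relative to cardiomyocyte markers, ratios chosen after seeing the data, Hcn4 was -1.08 (Ttn), -0.50 (Myh6), -0.34 (Actn2), -0.21 (Myl4), 0.13 (Nkx2-5), 0.31 (Tnnt2), 0.49 (Myl7) and 1.18 (Vcam1). Cd68 turned to -0.058 without negative siRNA replicate 1, in a range of -0.058 to 0.46. Of 583 values of 39 other named genes, 499 kept their side of the limits, 65 lost a call, 18 gained one and 1 turned.

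Counts of called genes were 659 higher and 345 lower, 994 and 701 with no filter, and 1054 and 874 with no fold limit. Leaving out 1 negative siRNA sample gave 630 to 823 genes higher and 345 to 472 lower. Leaving out 1 DNMT1 siRNA sample gave 255 to 316 higher and 112 to 146 lower. Over all the fits that left out 1 sample, 0 to 2 of the 7 genes were higher, and 6 to 18 list genes were higher against 15. Another denominator for the Hcn4 share was not run. With no fold limit 3 list genes were lower. The difference in the Cacna1d share ranged from -1.56 to 1.16 points when 1 sample was left out, the Hcn4 share from 11.1 to 16.2 and the Cacna1g share from 2.45 (without negative siRNA replicate 2) to 11.9. The causes of these differences were not tested.

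Replicate numbers are shared by both groups. Deviations of log2 CPM from the group mean were therefore correlated between samples of the 2 groups. Same-numbered samples gave 0.0064, -0.0208 and 0.0274 and differently numbered ones -0.0764 to 0.065, so same-numbered samples were not treated as pairs. With the replicate block, 513 genes were higher and 285 lower, and Hcn4 kept its call (edgeR FDR = 0.0471), while Cacna2d2 (0.0519) and Rgs6 (0.0759) lost theirs, as did Cntn2, Myl2, Kdr, Col1a1 and Col1a2, and Cav3 gained one.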
